A study of Mus musculus with 8 samples.

Results

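The cohesin subunit genes were followed in whole testes of mice at postnatal day 8, when spermatogonia divide and the first spermatocytes appear. The members were the 8 genes Smc1a, Smc1b, Smc3, Rec8, Rad21, Stag1, Stag2 and Stag3, found by the gene name of their probes, and Rec8 by its accession, among the 27666 gene symbols of the array. They carried 17 probes, each of them well above background in every sample. The meiotic subunits Smc1b, Rec8 and Stag3 were set against the 5 others. Total RNA of 4 wild type and 4 VRK1-deficient testis samples had been labelled with Cy3 and hybridised to 1-colour Agilent whole genome mouse arrays, 1 sample per array. VRK1, vaccinia-related kinase 1, is a nuclear kinase of dividing cells. The VRK1-deficient mice carry a gene trap, a β-geo reporter inserted in intron 3 of Vrk1, came from the single embryonic stem cell line RRR178, had been backcrossed to C57BL/6, and are hypomorphic, so that some full-length VRK1 remains. The trap acts in every cell that transcribes Vrk1, in germ cells and somatic cells alike. The labels number the 4 samples of each genotype as replicates, which the study calls biological, and do not say how many mice each one holds.

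Cohesin is a ring of proteins that holds sister chromatids together from replication until they separate. In dividing somatic cells the ring is built from the paired ATPases SMC1A and SMC3, the kleisin RAD21 that closes the ring, and a STAG1 or STAG2 subunit that binds the kleisin. Germ cells entering meiosis make SMC1B, REC8 and STAG3 in addition, which take the places of SMC1A, RAD21 and STAG1 or STAG2 along the chromosome axes of the synaptonemal complex, while SMC3 serves both kinds of ring. RAD21L, a further meiotic kleisin, had no probe that could be named here.

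The sequences around the start sites of Smc1b, Rec8, Stag3 and Stag1 are shown because the first 3 had nearly parallel values across the arrays and Stag1, a mitotic counterpart, did not. Each runs from 120 bases before to 10 bases after the RefSeq start (build GRCm38.p6), on the strand of the gene, and capitals mark the letters TCCCGC, the core that E2F factors bind, read on both strands.
Smc1b, chr15:85131948-85132077, minus strand: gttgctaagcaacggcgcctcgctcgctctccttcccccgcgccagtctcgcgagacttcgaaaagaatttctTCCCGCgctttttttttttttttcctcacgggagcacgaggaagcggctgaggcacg
Rec8, chr14:55618046-55618175, plus strand: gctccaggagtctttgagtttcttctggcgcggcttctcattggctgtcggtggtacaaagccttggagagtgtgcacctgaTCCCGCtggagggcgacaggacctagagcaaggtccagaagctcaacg
Stag3, chr5:138280389-138280518, plus strand: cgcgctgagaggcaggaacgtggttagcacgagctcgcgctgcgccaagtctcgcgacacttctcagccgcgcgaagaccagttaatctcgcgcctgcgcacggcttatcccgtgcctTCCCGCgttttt
Stag1, chr9:100643328-100643457, plus strand: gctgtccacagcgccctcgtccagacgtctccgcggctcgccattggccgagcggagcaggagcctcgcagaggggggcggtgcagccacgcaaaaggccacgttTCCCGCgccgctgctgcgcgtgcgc
The RefSeq promoter table held 6 of the 8 members, with 250 bases before and 50 after each start, and had no entry for Rad21 or Stag2. TCCCGC stood in all 6 of these windows, in the 3 meiotic ones and in those of Smc1a, Smc3 and Stag1 alike, beside 19.98% of all 32851 windows of the same length. The E-box letters CACGTG stood in the window of Stag3 alone among the 6, and in 7.15% of all windows. The GC box letters GGGCGG stood in those of Smc1a, Smc3, Stag1 and Stag3 and in 35.7% of all, and TGACGTCA, the cyclic AMP response element, in none of the 6 and in 1.79% of all. All 4 motifs were read on both strands, and none of them separated the meiotic from the mitotic genes. A match of letters is a description of the sequence and not a site shown to be bound.

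The targeted gene followed the labels. Vrk1, on its brighter probe, was 0.16 ± 0.38 (SD, n = 4) in wild type and −3.85 ± 0.27 in VRK1-deficient testes, a log2 change of −4.00 that left 6.23% of the signal (limma, adjusted p = 0.000135). Values throughout are log2 of the processed signal minus log2 of the 75th percentile of the same array, which was 642 to 848 in wild type and 548 to 745 in VRK1-deficient testes, and 63.6 to 69.5% of the probes on an array were well above background. Among the wild type arrays, replicates 1 and 3 differed most from the others of that genotype. Wild type replicate 1 correlated with the 4 VRK1-deficient arrays at 0.987 to 0.990 over the tested probes and with the other wild type arrays at 0.970 to 0.986, so the main results below are given with and without it. Its labels were kept, since its Vrk1 value of −0.20 lay with the other wild type arrays. Wild type replicate 3 had the lowest correlations, 0.963 to 0.976 with VRK1-deficient and 0.970 to 0.986 with wild type arrays. Without replicate 1, 28.4% of all tested probes were called and 14.7% were called lower, and without any other single array 68 probes or fewer were called. The arrays came on 2 slides with both genotypes on each, wild type at positions 1 and 2 and VRK1-deficient at positions 3 and 4, so that position on the slide and genotype cannot be told apart.

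On the brightest probe of each gene, transcripts of the 3 meiotic subunits were lower in VRK1-deficient testes. They stood at 45.0, 52.0 and 49.0% of the wild type signal for Smc1b, Rec8 and Stag3. On the same measure the 5 mitotic subunits lay within 0.36 of wild type on the log2 scale, while their other probes ranged from −0.57 (Stag1) to 0.37 (Smc1a). The median log2 change was −1.03 over the meiotic and 0.15 over the mitotic subunits, beside 0.04 over all 26948 probes tested, of which the central part from the 10th to the 90th percentile ran from −0.53 to 0.47. Of the 8 members, 1 passed the test at an adjusted p of 0.05, Stag3, which fell, beside 3.64% of all tested probes called in either direction, 1.97% lower and 1.68% higher. The study had itself listed Smc1b and Stag3 as lower on these arrays, so their direction is no independent evidence. The values of a whole testis do not tell fewer cells of a type from less RNA per cell.

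Stag3, the meiotic counterpart of STAG1 and STAG2, was measured by 1 probe (A_51_P494822, NM_016964, mm7 chr5:137257699-137257758). Its log2 signal was 2.21, 2.91, 2.90 and 3.03 in wild type replicates 1 to 4 and 1.46, 1.99, 1.90 and 1.57 in VRK1-deficient replicates 1 to 4. Every wild type array lay above every VRK1-deficient array, and wild type replicate 1 was the nearest to them. The log2 change was −1.03 with a standard error of 0.20 and a 95% interval of −1.49 to −0.57 (limma, adjusted p = 0.0454). Without wild type replicate 1 the change was −1.21 (limma, adjusted p = 0.00344), whereas leaving out any other single array gave adjusted p of 0.0706 to 0.147 in limma. Within the first slide the change was −0.83 and within the second −1.23.

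Smc1b encodes the SMC1 protein of meiotic rings and had 1 probe (A_51_P244303, NM_080470, mm7 chr15:85147084-85147143). Its log2 signal was 2.29, 3.40, 3.96 and 3.83 in wild type and 1.77, 2.51, 2.48 and 2.09 in VRK1-deficient testes. The genotypes overlapped through wild type replicate 1, which lay between the VRK1-deficient arrays, and the other 3 wild type arrays were above all of them. The log2 change of −1.15 (standard error 0.35, 95% interval −1.94 to −0.36) did not pass the test with all arrays (limma, adjusted p = 0.0796). It was −1.51 without wild type replicate 1 (limma, adjusted p = 0.00398), and leaving out any other array gave adjusted p of 0.114 to 0.205 in limma. It was −0.70 and −1.60 within the first and the second slide.

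Rec8, the meiotic kleisin that is cleaved to part the chromosomes, had 2 probes, listed on the array under the older name Rec8L1 and found through NM_020002. The brighter one (A_51_P246677, mm7 chr14:50492672-50492731) read 1.91, 3.07, 2.77 and 2.87 in wild type and 1.85, 2.04, 1.68 and 1.27 in VRK1-deficient testes. Wild type replicate 1 again lay inside the range of the VRK1-deficient arrays while the other 3 lay above it. The log2 change was −0.94 (standard error 0.26, 95% interval −1.53 to −0.35) and missed the threshold (limma, adjusted p = 0.0663). Without wild type replicate 1 it was −1.19 (limma, adjusted p = 0.00476), and without any other array the adjusted p was 0.0907 to 0.178 in limma. Within the slides it was −0.55 and −1.34. The second Rec8 probe, A_52_P459732, gave −0.76 (standard error 0.25, limma, adjusted p = 0.0904), the same direction on the same gene, with wild type replicate 1 at −0.21 as the lowest of the wild type arrays. It covers 385 bases of the genome with 60 bases of sequence, as a probe across a splice junction does.

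**Figure D1:**
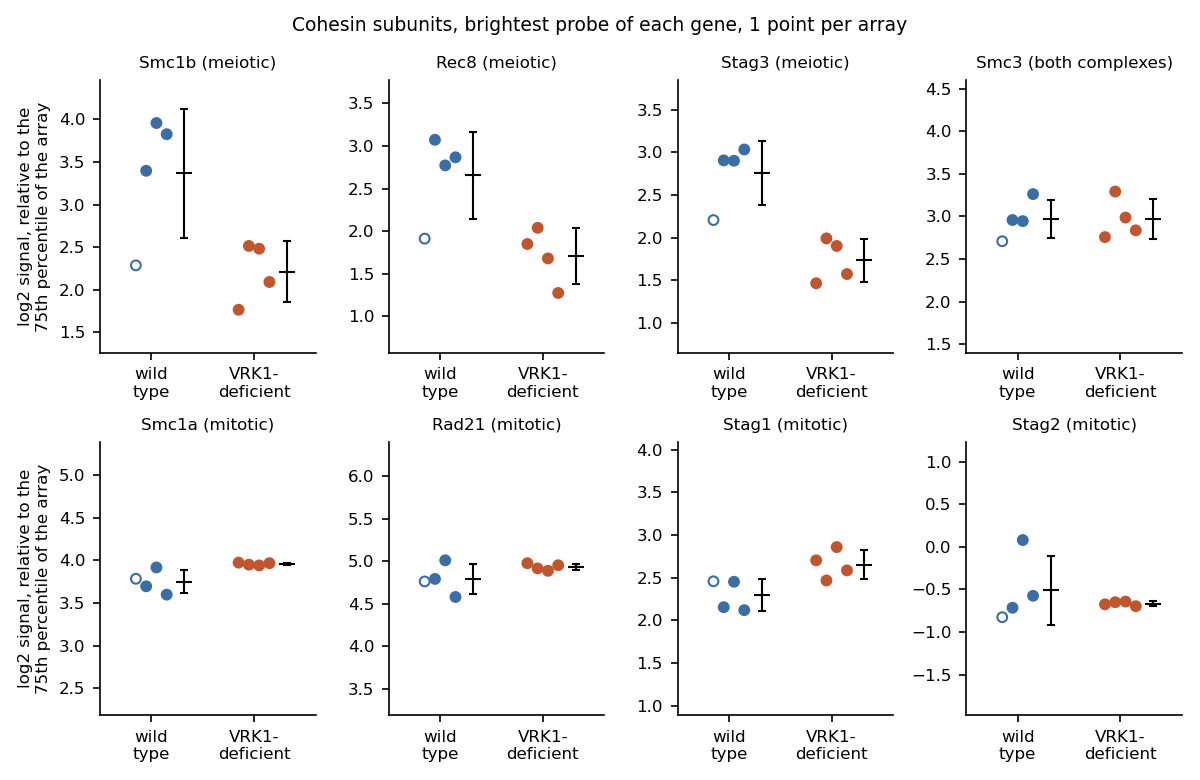
Log2 signal of the brightest probe of each cohesin subunit, with the 75th percentile of its array subtracted, in the 4 wild type (blue) and 4 VRK1-deficient (orange) arrays, replicates 1 to 4 from left to right; the open circle is wild type replicate 1, the bars give the mean and SD, and all panels span the same range on the log2 scale. Smc1b, Rec8 and Stag3 are lower in the VRK1-deficient arrays, wild type replicate 1 is the lowest wild type array in each of them, and the mitotic subunits change by 0.36 or less.

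SMC3, the partner of both SMC1 proteins, is the subunit that mitotic and meiotic rings share. The brightest Smc3 probe (A_51_P380875, NM_007790) read 2.71, 2.96, 2.94 and 3.26 in wild type and 2.76, 3.29, 2.99 and 2.84 in VRK1-deficient testes, with the genotypes fully mixed. The means differed by less than 0.01, with a 95% interval of −0.36 to 0.36 (limma, adjusted p = 0.999), and the second probe gave −0.19 (limma, adjusted p = 0.547). A loss of the size seen for Stag3 lay outside both intervals.

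Smc1a, the SMC1 protein of mitotic rings, read 3.79, 3.70, 3.92 and 3.60 in wild type and 3.97, 3.95, 3.94 and 3.97 in VRK1-deficient testes on its brighter probe (A_51_P123047, NM_019710). The 4 VRK1-deficient values were nearly equal, with an SD of 0.015, and all were above the wild type ones, but the log2 difference of 0.21 (standard error 0.11) did not pass the test (limma, adjusted p = 0.226). The second Smc1a probe differed by 0.37 (limma, adjusted p = 0.269) with overlapping genotypes. Rad21, the mitotic kleisin, was 4.79 ± 0.18 in wild type and 4.93 ± 0.04 in VRK1-deficient testes (SD, n = 4), a difference of 0.15 (limma, adjusted p = 0.425) that turned to −0.032 when the arrays were not scaled to each other and the median over all probes was −0.14, and its second probe gave −0.06. For neither gene was a change detectable with 4 arrays a group.

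Stag1 and Stag2, the alternative kleisin-binding subunits of mitotic rings, had 4 and 3 probes, and the probes of a gene differed among themselves. The brightest Stag1 probe (A_52_P267446, NM_009282) read 2.46, 2.15, 2.45 and 2.12 in wild type and 2.70, 2.47, 2.86 and 2.59 in VRK1-deficient testes, higher in all 4 VRK1-deficient arrays. Its log2 difference was 0.36 (standard error 0.14, limma, adjusted p = 0.128). The next 2 Stag1 probes, which start 1016 and 623 bases before it on the genome, gave −0.18 and 0.26, and the last, A_52_P673971, starts 171720 bases before it and gave −0.57 (standard error 0.17, limma, adjusted p = 0.0765). That probe read −2.54, −2.46, −2.10 and −2.58 in wild type and −2.80, −2.89, −2.86 and −3.40 in VRK1-deficient testes, so that it separated the genotypes in the opposite direction to the brightest probe. The mean over all Stag1 probes changed by −0.033. Stag2 was −0.51 ± 0.41 in wild type and −0.67 ± 0.02 in VRK1-deficient testes (SD, n = 4) on its brightest probe, a difference of −0.16 (limma, adjusted p = 0.604), and the others gave −0.56 (A_51_P126540, limma, adjusted p = 0.143) and 0.08. No Stag1 or Stag2 probe passed the test, so no direction is given for either gene.
The probe sequences are printed for the 2 mitotic probes with the most negative change of their gene and for the Rec8 probe that covers a gap in the genome, with positions in mm7, the build of the array's files. The exon that each probe reads was not determined here.
Stag1 A_52_P673971, chr9:100429560-100429619, plus strand: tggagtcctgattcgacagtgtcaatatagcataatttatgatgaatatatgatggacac
Stag2 A_51_P126540, chrX:37358417-37358476, plus strand: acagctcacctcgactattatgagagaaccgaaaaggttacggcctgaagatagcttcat
Rec8 A_52_P459732, chr14:50491716-50492100, plus strand: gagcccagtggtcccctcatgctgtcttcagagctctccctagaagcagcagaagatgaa

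**Figure D2:**
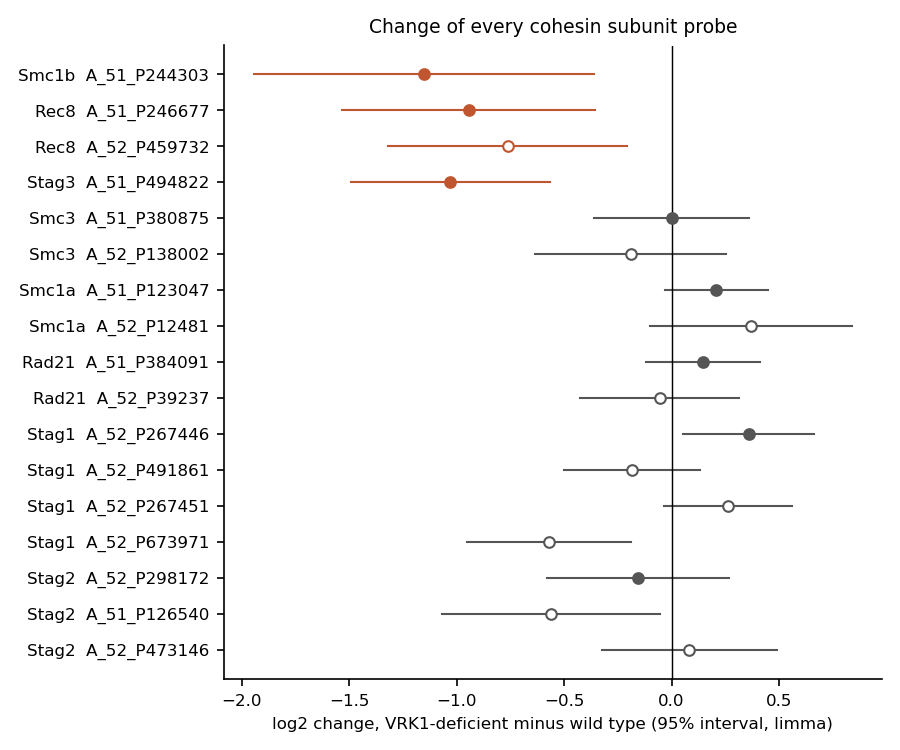
Log2 change (VRK1-deficient minus wild type) of all 17 cohesin subunit probes with 95% intervals from limma; filled circles are the brightest probe of a gene, open circles its other probes, and the meiotic subunits are in orange. All 4 meiotic probes lie between −1.15 and −0.76 with intervals below 0, while the 13 mitotic probes lie on both sides of 0.

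Counted over probes, 11 of the 17 were lower in VRK1-deficient testes, all 4 meiotic and 7 of 13 mitotic ones, and 45.5% of all tested probes were lower. Wild type and VRK1-deficient values were fully separate for 4 of the 17 probes, beside 16.7% of all tested probes. The 4 were Stag3 and Stag1 A_52_P673971, which were lower, a state that 7.28% of all tested probes shared, and Smc1a A_51_P123047 and Stag1 A_52_P267446, which were higher, as were 9.43% of all. Probes of a gene share their target and are not replicates.

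Within an array, the signal of each meiotic subunit was set against that of its mitotic counterpart, which removes any factor that scales the whole array. The size of such a difference depends on the probes, and its shift between genotypes is what was compared. The brightest probe of each gene was used. The other Stag1 probes changed by −0.18, 0.26 and −0.57, and the other Stag2 probes by −0.56 and 0.08. The size of the Stag3 shifts therefore depends on the probe chosen for Stag1 and Stag2. Stag3 minus Stag1 was −0.25, 0.75, 0.45 and 0.91 in wild type and −1.24, −0.48, −0.96 and −1.01 in VRK1-deficient testes, a shift of −1.39 with no overlap. Stag3 minus Stag2 shifted by −0.87 and Rec8 minus Rad21 by −1.09, both without overlap, although the highest VRK1-deficient array, −2.88, came close to wild type replicate 1, −2.85, in Rec8 minus Rad21. Smc1b minus Smc1a shifted by −1.36 and overlapped, since wild type replicate 1 at −1.50 lay below 2 VRK1-deficient arrays. The median of the 3 meiotic minus the median of the 5 mitotic subunits was −0.17 ± 0.27 in wild type and −1.15 ± 0.13 in VRK1-deficient testes (SD, n = 4), a shift of −0.98 without overlap, and of −1.10 without wild type replicate 1. On the first slide the shift was −0.93 and on the second −1.04. Without wild type replicate 1 the pairs shifted by −1.63 for Stag3 minus Stag1, −0.95 for Stag3 minus Stag2, −1.33 for Rec8 minus Rad21 and −1.73 for Smc1b minus Smc1a. These shifts are given with no test, since the pairs were formed from genes whose changes were known.

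**Figure D3:**
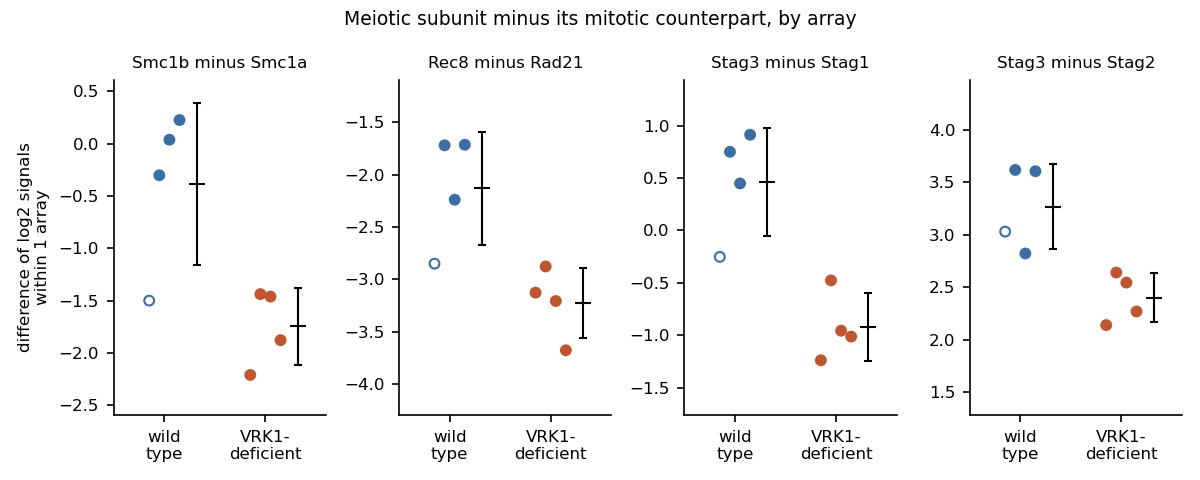
Difference of the log2 signals of a meiotic subunit and a mitotic counterpart within each array, in the 4 wild type (blue) and 4 VRK1-deficient (orange) arrays; the open circle is wild type replicate 1, and the bars give the mean and SD. On the brightest probe of each gene, the difference is lower in the VRK1-deficient arrays in all 4 pairs, by 0.87 to 1.39 on the log2 scale. It overlaps only for Smc1b minus Smc1a, and the other Stag1 and Stag2 probes changed differently.

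Across the 8 arrays the 3 meiotic subunits followed each other, with Pearson r of 0.96 between Smc1b and Stag3, 0.93 between Rec8 and Stag3 and 0.87 between Smc1b and Rec8. Without wild type replicate 1 the values were 0.98, 0.94 and 0.87. Among the mitotic subunits Smc1a and Rad21 gave 0.92, Smc1a and Stag1 0.85, and Rad21 and Stag1 0.67. Stag2 did not go with them, at 0.15 with Smc1a, 0.37 with Rad21 and −0.06 with Stag1, and gave 0.64 with the meiotic Smc1b. Smc3 gave no value above 0.50 with any member. These are descriptions over 8 arrays that share the genotype difference and wild type replicate 1. Among the genes whose pattern was most like that of Smc1b were Tdrkh, a tudor protein of the piRNA pathway, at r = 0.998, and Tex12, a protein of the synaptonemal complex, at 0.997. Those for Stag3 were Gpat2 at 0.998, Map7d2 at 0.997 and Tspan33 at 0.995, and those for Rec8 were Xpc, a DNA repair protein, at 0.996, Hnrnpdl at 0.989 and Psmd2, a proteasome subunit, at 0.987. The likeness was not rare. Smc1b shared an r above 0.95 with 1134 other gene symbols of the array, Stag3 with 873 and Rec8 with 198.

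Genes that load, lock, protect and cut cohesin gave a smaller and mixed picture. Of the 17 regulators listed, 15 were tested, Ctcfl and Rad21l having no named probe. Of these, 10 were lower and 5 higher, with a median change of −0.23. In limma 0 passed the test, while 4 of the 15 had an unadjusted p under 0.05, beside 28.8% of all tested probes, and the methods' t-test called 0 after adjustment. The 4 were Sgo2a, which protects centromeric REC8, at −0.49, Espl1, the separase that cleaves the kleisin, at −0.46, Wapl, which opens the ring, at −0.41, and Hdac8, which deacetylates SMC3, at 0.47 (limma, adjusted p = 0.0974 to 0.153). Hdac8 was the largest rise and Esco2, which acetylates SMC3, the largest fall at −0.53 (standard error 0.37, limma, adjusted p = 0.372), and the Esco2 arrays overlapped widely, wild type replicate 1 being the lowest of all 8 at −2.17. Without that array 5 of the 15 were called, all lower, beside 28.4% of all tested probes called and 14.7% called lower in the same fit. They were Esco1 at −0.65, Esco2 at −0.89, Sgo2a at −0.63, Wapl at −0.56 and Cdca5, the sororin that keeps rings closed, at −0.52 (limma, adjusted p = 0.0141 to 0.0358). Sgo2a, Espl1, Wapl, Esco1 and Cdca5 were named after their values were seen.

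Condensin and the SMC5/6 complex are the other rings built on SMC proteins. Of 14 genes listed 13 were tested, Ncaph2 having no named probe, and 8 were lower and 5 higher with a median of −0.09. In limma 0 passed the test and 4 of the 13 had an unadjusted p under 0.05, beside the same 28.8% of all tested probes, and the methods' t-test called 0 after adjustment. Smc5 had the largest fall at −0.70 (standard error 0.21, limma, adjusted p = 0.0801), with log2 signals of 0.53, 1.23, 1.39 and 1.39 in wild type and 0.22, 0.66, 0.64 and 0.24 in VRK1-deficient testes, so that it overlapped through wild type replicate 1 alone. Ncaph, a condensin I subunit, had the largest rise at 0.38 (limma, adjusted p = 0.280). Without wild type replicate 1, where 28.4% of all tested probes were called and 14.7% called lower, 2 of the 13 were called. Smc5 at −0.90 and Ncapd3, a condensin II subunit named after its values were seen, at −0.40 were lower (limma, adjusted p = 0.00565 and 0.0270).

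The meiotic subunits moved with the pan germ cell, meiotic prophase and differentiating spermatogonia markers, but not with most markers of undifferentiated spermatogonia, given below. All 7 pan germ cell markers were lower, 2 of them called, with a median of −0.97, and their summed signal, in units of the 75th percentile, was 24.0 to 58.3 in wild type and 16.6 to 25.9 in VRK1-deficient testes. All 9 meiotic prophase markers were lower, 2 called, median −1.24, with sums of 15.3 to 59.5 and 10.6 to 19.4, and all 5 tested markers of differentiating spermatogonia were lower, 1 called, median −1.33, with sums of 22.4 to 72.2 and 11.7 to 27.0. Over all tested probes 1.97% were called lower. Of these markers the study had itself listed Dazl, Mei1, Sycp2, Syce1, Stra8 and Crabp1 as lower on these arrays, so their direction is no independent evidence. Wild type replicate 1 was the lowest wild type array in all 3 sums. Set against the median of these lists within each array, the median of the meiotic subunits shifted by −0.13 from the pan germ cell list and by 0.19 from the meiotic prophase list, with overlapping genotypes in both. Without wild type replicate 1 these shifts were −0.04 and 0.37, and the shift from the prophase list was −0.31 on the first slide and 0.69 on the second, so it has no settled direction. Without that array the list medians were −1.29, −1.61 and −1.68. In that fit 7 of 7, 8 of 9 and 5 of 5 markers were called lower, beside 14.7% of all tested probes. The part of germ cell number in the result was not tested.

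The remaining lists, that of undifferentiated spermatogonia included, had other values. Beside the counts called in them stand 3.64% of all tested probes, 1.97% lower and 1.68% higher. Of 7 tested markers of undifferentiated spermatogonia 1 was lower and 6 were higher, with 1 called each way and a median of 0.54. Their sums were 2.86 to 3.97 in wild type and 3.17 to 3.44 in VRK1-deficient testes. Zbtb16, the gene of Plzf, was listed as well but had no named probe. The study reported Plzf and other markers of undifferentiated spermatogonia as reduced by quantitative RT-PCR at the same age. It also listed Lin28a and Lin28b as lower on these same arrays, and counted Lin28 among the markers of undifferentiated spermatogonia. Apart from Zbtb16, none of the markers named there was in the list here, so that reduction was not tested. Of 10 Sertoli cell markers 2 were lower and 8 higher, median 0.33, none called, with sums of 214 to 304 and 271 to 321, and the medians were 0.28 for 6 Leydig, −0.06 for 5 peritubular, 0.11 for 6 macrophage and 0.35 for 4 endothelial markers. Among those 4 lists 1 peritubular marker was called, lower in VRK1-deficient testes, and no other. The 8 mitotic cell cycle genes, the setting in which the mitotic subunits act, were 4 lower and 4 higher, 1 of them (Cdk1, at 0.48, limma, adjusted p = 0.0493) called higher, with a median of −0.01 and sums of 34.4 to 41.9 and 33.8 to 41.6. Each tested marker of these lists cleared background in all 8 samples. Without wild type replicate 1, 28.4% of all tested probes were called and 14.7% called lower. In that fit 5 of 7 undifferentiated markers were called higher and 1 lower, and 6 of 10 Sertoli markers higher and 1 lower. Also called were 2 Leydig and 1 endothelial marker, higher, and 1 peritubular marker, lower. Of the 8 cell cycle genes 2 were called higher and 1 lower, and no macrophage marker was called.

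**Figure D4:**
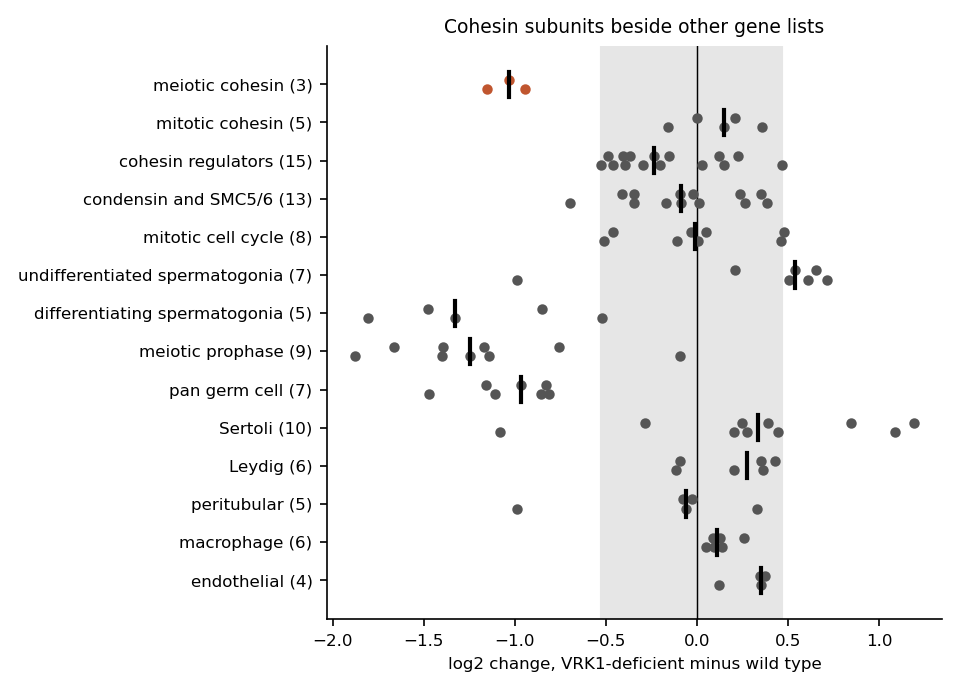
Log2 change (VRK1-deficient minus wild type) of the meiotic and mitotic cohesin subunits and of the genes of the other lists, 1 point per gene on its brightest probe, with the number tested in brackets; black bars are medians, and the grey band runs from the 10th to the 90th percentile of all 26948 tested probes, −0.53 to 0.47. The meiotic subunits lie left of the band with most pan germ cell and prophase markers, and the mitotic subunits lie inside it.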

How the data were processed

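Cy3-labelled cRNA from 4 wild type and 4 VRK1-deficient testis samples was hybridised to 8 arrays on 2 slides. The authors scanned them with Agilent Feature Extraction 9.5.3.1, which corrected background and spatial trends, and deposited processed signal intensity per spot, with probe positions in build mm7 and no scaling between arrays. The deposited value table held the same intensities (0 unequal values).

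Control spots and outlier spots were removed, spots of a probe were averaged, and log2 signal minus the array's log2 75th percentile was fitted with limma 3.58.1 (R 4.3.3) over 26948 probes well above background on at least 4 arrays. Benjamini-Hochberg adjustment ran over all of these probes, and probes were called at adjusted p under 0.05. The brightest probe stood for a gene. The number of arrays limits the precision. The limma p-values set each change against the spread between these samples, with variances moderated over all tested probes. Symbols were updated through RefSeq accessions: 23082 probes by accession, 6582 by symbol and 3073 by synonym. The fit was tested on simulated data.

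The members and all gene lists were chosen with earlier results of these data known. Named genes were the 8 members, of the regulator and the condensin and SMC5/6 lists every called gene with the largest rise and fall, Rad21l, the 3 symbols most correlated with each meiotic subunit, of which 1 is not reported here, and Vrk1. Alternatives were the normalization, the background correction, the filter on dim probes, the mean of a gene's probes and the slide. Others were a replicate block, each array left out, an intensity trend, and the methods' t-test with the same adjustment. No gene model of mm7 was used here, so the part of the transcript a probe reads was not assigned.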

Additional observations from a re-analysis of the deposited data

Results flagged for a closer look

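In 76 groups of 4 arrays examined, 7 held 1 array whose distance from the other 3 passed the limit of Dixon's test, where chance gives about 1 in 20. Of these, 3 were those of wild type replicate 1. Stag3 read 2.21 there and 2.90 to 3.03 in the other wild type arrays, Map7d2 −0.16 beside 0.85 to 1.02, and Tspan33 1.14 beside 2.09 to 2.25. Map7d2 and Tspan33 were examined because they followed Stag3 most closely across these same arrays. These 3 are therefore not separate observations, and the count of 7 is not one of independent groups. Another 3 were those of wild type replicate 3, with the second Smc1a probe (A_52_P12481) at −3.32 beside −2.46 to −2.39, Hdac8 at −2.73 beside −2.27 to −2.20, and Ncaph at −0.84 beside −0.01 to 0.15. The last was the distant Stag1 probe (A_52_P673971) in VRK1-deficient replicate 4, at −3.40 beside −2.89 to −2.80.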

How the results depend on the processing

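Smc1b, Rec8 and Stag3 were lower under all 20 alternatives, and Smc1a was higher under all 20. Stag3 was called under 10 of them, Smc1b under 4 and Rec8 under 3. With 982 probes and 1 member called, the unscaled signals called 916 probes and 2 members and moved the median of all tested probes from 0.04 to −0.14. No filter gave 17 and 0, the slide as a block 626 probes, the first slide alone 3 and 0, the second alone 1059 and 3, the methods' t-test 217 and 0, and an intensity trend 1920 and 2. The median difference of meiotic and mitotic changes, −1.18, was −0.89 on the first slide and −1.47 on the second. Directions turned for 4 mitotic subunits, none of them called: Rad21 at −0.032 unscaled, Stag1 at −0.033 as the mean of its probes, Stag2 at 0.11 on the first slide and −0.26 to 0.039 with an array left out, and Smc3 at 0.013 with normexp, 0.19 on the first slide and −0.11 to 0.098 with an array left out. The cause was not tested. Leaving out each array gave 3 to 7641 probes, 0 to 3 members, 0 to 5 regulators and 0 to 2 condensin and SMC5/6 genes, the upper values all without wild type replicate 1 and 68 probes or fewer without any other. With a replicate block 2280 probes, 2 members (Smc1b and Stag3) and 1 of the condensin and SMC5/6 genes (Smc5) were called. Same-numbered arrays deviated together at −0.14 to 0.47 and differently numbered ones at −0.37 to 0.27. These ranges overlap and do not settle whether the numbers are pairs. The labels name no pairs, so the main fit has none. All member probes were well above background.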
